A study of Mus musculus with 6 samples.

Results

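The 10 genes described here are the mitotic cyclins Ccna2, Ccnb1 and Ccnb2, the cyclin-like F-box gene Ccnf, the phosphatase genes Cdc25b and Cdc25c, and the regulators Cdc20, Fzr1, Fbxo5 and Ube2c of the anaphase-promoting complex (APC/C). They were found by gene symbol in a table of 23358 gene rows, and all 10 had a row. RNA was sequenced from MC3T3-E1, a pre-osteoblast cell line that came from the calvaria of C57BL/6 mice, after the cells had been grown to confluence in medium with serum. The NU7441 group received NU7441, which inhibits DNA-dependent protein kinase, at 1 µM for 16 h, and the DMSO group received the solvent for the same time. Each group has 3 samples, and per the series' design text they came from pooled triplicates of independent experiments. Whether the samples are separate cultures is not stated, so p-values cover only the spread between them, which may be technical. The study used a single cell line, dose and time.

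Entry into mitosis is driven by the kinase CDK1 bound to cyclin A2, cyclin B1 or cyclin B2. CDC25 phosphatases switch CDK1 on by removing the inhibitory phosphates that the kinases WEE1 and PKMYT1 place on it. The APC/C is the ubiquitin ligase that ends mitosis by marking cyclins and securin for destruction: CDC20 activates it during mitosis, FZR1 (also called CDH1) activates it from late mitosis through G1, FBXO5 (also called EMI1) holds it off before mitosis, and UBE2C is the enzyme that starts its ubiquitin chains. Cyclin F, the product of Ccnf, is a substrate receptor of another ubiquitin ligase, SCF, and does not activate a kinase. Most of these genes are transcribed in waves that peak in G2 and mitosis, and their promoters are known for CHR elements, read by the DREAM and B-MYB complexes, and for CCAAT boxes, bound by NF-Y. Because RNA was taken from whole cultures, fewer cells in G2 or mitosis and less RNA per such cell cannot be told apart.

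All 10 transcripts were lower in NU7441 than in DMSO. A group of 8, Ccna2, Cdc20, Ccnb1, Cdc25c, Ccnf, Ube2c, Fbxo5 and Ccnb2, stood at 33.8% to 43.5% of their DMSO level, whereas Cdc25b stood at 60.3% and Fzr1 at 78.2%. The count of 10 called lower at an adjusted p of 0.05 (edgeR quasi-likelihood test, Benjamini-Hochberg over 13784 genes) compares with 16.6% of all genes tested called lower and 14.1% called higher. Falls of at least 2-fold were seen in 8 of the 10, against 1.36% of all genes tested. For each of the 10, every NU7441 sample lay below every DMSO sample, which held for 22.2% of the genes tested. The median log2 fold change was -1.39 over the 10 genes and 0.01 over all genes tested.

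**Figure D1:**
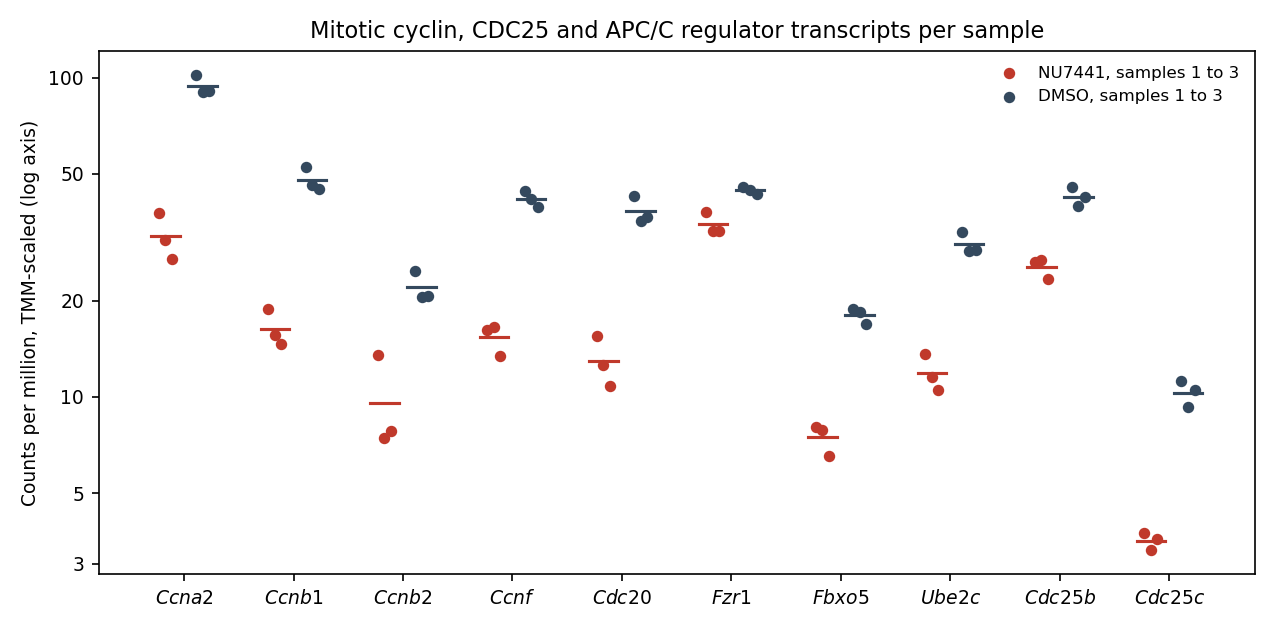
CPM (counts per 1e6 counts, TMM-scaled, log axis) of the 10 transcripts in each NU7441 sample (red, left of each pair) and each DMSO sample (dark, right of each pair), with a line at each group mean. The groups do not overlap for any of the 10 genes, and the gap is narrowest for Fzr1, with NU7441 samples at 33 to 38 CPM and DMSO samples at 43.2 to 45.4 CPM.

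The promoters of 6 of these genes are shown, among them those of Cdc25b and Fzr1, which moved less than the others. Whether promoter elements relate to the size of the fall was not tested. RefSeq windows on GRCm38.p6 (250 bases before to 50 after the annotated start) were matched by symbol for 8 of the 10, all but Ccna2 and Cdc25c. Bases 200 before to 30 after the start are printed 5′ to 3′ on the gene's strand, and capitals mark CHR elements (TTTGAA or TTCGAA) and CCAAT boxes, each on either strand, so that a box on the opposite strand reads ATTGG and a CHR reads TTCAAA. Ccnb1 lies on the minus strand (chr13:100786457-100786686), as do Ccnb2 (chr9:70421525-70421754), Cdc20 (chr4:118437314-118437543) and Fzr1 (chr10:81378341-81378570), and Ube2c (chr2:164769729-164769958) and Cdc25b (chr2:131186748-131186977) lie on the plus strand.
Ccnb1: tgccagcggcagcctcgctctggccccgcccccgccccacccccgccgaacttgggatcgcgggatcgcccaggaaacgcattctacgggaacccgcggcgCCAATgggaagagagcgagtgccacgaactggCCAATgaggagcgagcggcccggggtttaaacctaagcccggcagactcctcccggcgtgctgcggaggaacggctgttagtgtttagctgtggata
Ccnb2: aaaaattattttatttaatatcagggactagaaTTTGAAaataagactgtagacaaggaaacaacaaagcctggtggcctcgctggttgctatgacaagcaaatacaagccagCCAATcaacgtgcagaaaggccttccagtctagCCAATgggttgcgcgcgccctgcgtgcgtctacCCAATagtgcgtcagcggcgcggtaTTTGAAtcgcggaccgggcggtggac
Cdc20: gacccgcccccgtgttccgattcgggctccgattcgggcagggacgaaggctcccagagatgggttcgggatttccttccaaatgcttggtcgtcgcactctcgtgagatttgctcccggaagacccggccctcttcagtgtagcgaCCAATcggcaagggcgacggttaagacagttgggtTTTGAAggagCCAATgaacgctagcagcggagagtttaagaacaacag
Ube2c: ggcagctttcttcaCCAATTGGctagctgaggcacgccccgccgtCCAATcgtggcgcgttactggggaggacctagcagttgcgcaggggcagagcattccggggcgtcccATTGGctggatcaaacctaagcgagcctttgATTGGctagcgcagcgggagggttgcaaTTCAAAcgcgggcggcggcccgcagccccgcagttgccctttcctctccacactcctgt
Cdc25b: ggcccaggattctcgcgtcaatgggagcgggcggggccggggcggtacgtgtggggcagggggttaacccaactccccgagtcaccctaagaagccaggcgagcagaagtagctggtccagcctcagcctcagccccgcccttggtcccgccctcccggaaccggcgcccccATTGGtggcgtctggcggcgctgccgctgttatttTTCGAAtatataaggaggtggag
Fzr1: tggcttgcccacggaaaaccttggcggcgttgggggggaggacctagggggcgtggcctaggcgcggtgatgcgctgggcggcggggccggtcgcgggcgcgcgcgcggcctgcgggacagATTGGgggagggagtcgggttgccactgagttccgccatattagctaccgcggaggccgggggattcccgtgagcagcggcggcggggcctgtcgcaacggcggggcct

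In the full windows of 300 bases a CHR was found in 6 of the 8 genes and a CCAAT box in 8 of 8. TTTGAA was found in Ccnb2, Ccnf, Cdc20, Fbxo5 and Ube2c and TTCGAA in Cdc25b. Of 27025 windows, the first listed for each gene, 18.1% held TTTGAA, 1.57% TTCGAA and 37.9% CCAAT, and among the 9650 windows of genes tested here these shares were 11.9%, 2.13% and 38.9%. A CHR together with a CCAAT box was found in 6 of the 8 genes, against 7.7% of all windows and 5.82% of the windows of tested genes. At least 2 CCAAT boxes were found in 6 of the 8, against 12.2% and 14.8%. The boxes of Ccnb2 begin 87, 54 and 21 bases before the start, and its nearer CHR begins at base 5 after it. In Cdc20 the CHR begins 18 bases before the start, between boxes that begin 53 and 8 bases before it. Fzr1 had a single box, 79 bases before the start, and no CHR, and Ccnb1, which fell about as far as Cdc20, had 2 boxes and none of either CHR spelling in this window. Cdc25b, which fell less than Cdc20 and Ccnb1, had both a CHR and a single box. In Ube2c, 2 of the 6 boxes share bases on opposite strands. The E2F spellings TTTGGCGC and TTTCCCGC, searched on both strands, were found in 0 of the 8 windows. They were found in 0.537% and 1.11% of all windows and in 1.03% and 2.03% of those of tested genes. At shares this low, 0 of 8 does not set these genes apart. A match of letters does not show that a factor binds there.

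**Figure D2:**
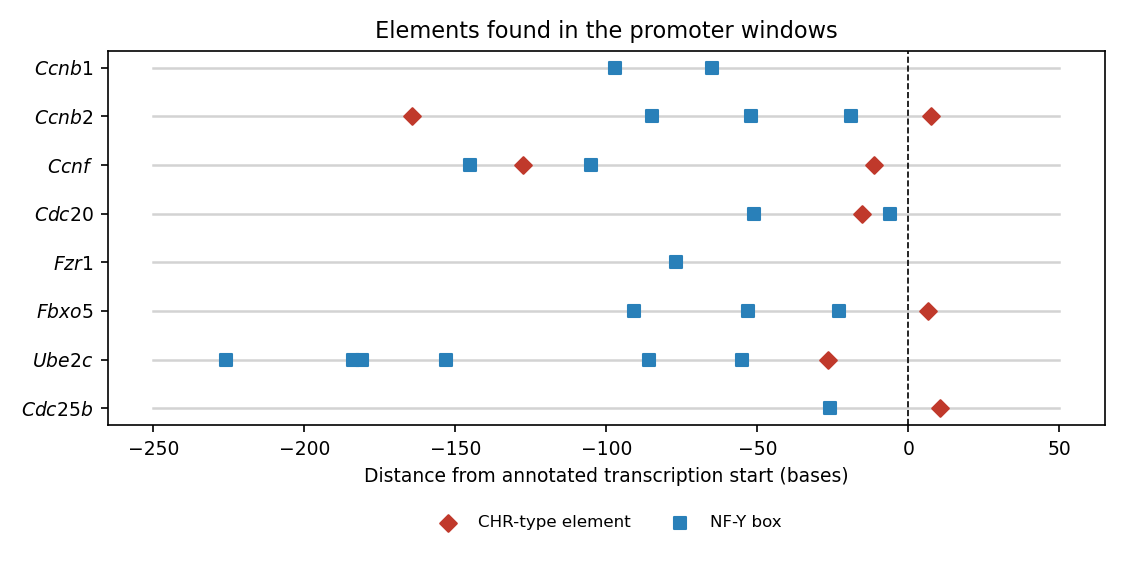
Positions of CHR-type elements (red diamonds) and NF-Y (CCAAT) boxes (blue squares) in the promoter windows of 8 genes, with distance in bases from the annotated transcription start on the horizontal axis. Most elements of Ccnb2, Cdc20 and Fbxo5 lie within the last 100 bases before the start or just after it, and Fzr1 has 1 box only.

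Among the cyclins, Ccna2, whose product acts in S phase and in early mitosis, had the highest RNA level per gene length in both groups. Ccna2 (mm10 chromosome 3, 36564865 to 36571996) stood at 37.6, 31 and 27 counts per 1e6 counts (CPM) in the NU7441 samples 1 to 3, against 102, 89.9 and 90.9 CPM in the DMSO samples. The lowest DMSO value was 2.39 times the highest NU7441 value. Its log2 fold change was -1.56 ± 0.09 (SE; edgeR, adjusted p = 3.9e-09), rank 14 from the lowest of the 13784. Ccna2 shares 863 bases with the row of Exosc9, an RNA exosome gene, which had a log2 fold change of -0.14 ± 0.04, and reads in the shared stretch cannot be told apart here.

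Ccnb1 encodes cyclin B1, the principal partner of CDK1 at entry into mitosis. Ccnb1 (mm10 chromosome 13, 100778739 to 100786486) stood at 18.9, 15.6 and 14.6 CPM in NU7441, against 52.6, 46.2 and 44.8 CPM in DMSO. These groups are well apart, with the lowest DMSO sample at 2.37 times the highest NU7441 sample, and the log2 fold change was -1.55 ± 0.08 (edgeR, adjusted p = 1.8e-09). Ccna2 and Ccnb1 kept nearly the same proportion: the ratio of Ccnb1 to Ccna2 counts was 0.503, 0.502 and 0.540 in NU7441, against 0.514, 0.514 and 0.493 in DMSO (exact permutation test over samples, two-sided p = 0.8, n = 3 per group, and 0.8 adjusted over 5 ratios; log2 difference 0.02). That difference was smaller than the spread between samples, with an SD of 0.05 on the log2 scale.

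Ccnb2 encodes cyclin B2, which is found largely at the Golgi. Ccnb2 (mm10 chromosome 9, 70407689 to 70421554) stood at 13.5, 7.46 and 7.81 CPM in NU7441, against 24.9, 20.5 and 20.7 CPM in DMSO. NU7441 sample 1 stood apart from the other NU7441 samples but below all DMSO samples. The log2 fold change was -1.20 ± 0.16 (95% interval -1.54 to -0.86; edgeR, adjusted p = 4e-05), -1.53 without NU7441 replicate 1, and the adjusted p was 0.039 in a robust fit. Ccnb2 had the widest interval of the 10 genes, and it reaches above a 2-fold fall. The ratio of Ccnb1 to Ccnb2 counts was 1.40, 2.09 and 1.87 in NU7441, against 2.11, 2.25 and 2.16 in DMSO (exact permutation test, two-sided p = 0.1, the smallest that 3 against 3 samples allow, and 0.125 adjusted over 5 ratios). The log2 difference of that ratio was -0.30, and -0.14 without NU7441 replicate 1. Both cyclin B genes have an annotated processed pseudogene, Ccnb1-ps and Ccnb2-ps, and how the counting split reads between near-identical copies is not stated, so their single values carry that uncertainty.

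The paralogs Ccna1 and Ccnb3, named after their values were seen, encode cyclins of the germ line. Ccna1 had 0, 0 and 0 counts in NU7441, against 4, 0 and 0 in DMSO, and Ccnb3 had 0 counts in all NU7441 samples and 2 counts in 1 DMSO sample. Both were removed by the low-count filter.

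Ccnf (mm10 chromosome 17, 24223232 to 24251409) stood at 16.2, 16.6 and 13.4 CPM in NU7441, against 44.1, 41.6 and 39.3 CPM in DMSO. Cyclin F marks proteins such as the ribonucleotide reductase subunit RRM2 for destruction in G2. Its transcript was close to the same level in NU7441 samples 1 and 2 and lower in sample 3, and the log2 fold change was -1.43 ± 0.07 (edgeR, adjusted p = 7.6e-10).

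The coactivators of the APC/C differed in size of change. Cdc20 (mm10 chromosome 4, 118432901 to 118437343) stood at 15.5, 12.6 and 10.8 CPM in NU7441, against 42.6, 35.6 and 36.6 CPM in DMSO. Its log2 fold change was -1.56 ± 0.10 (95% interval -1.76 to -1.35; edgeR, adjusted p = 1.3e-08). Cdc20 overlaps the row of Elovl1, a fatty acid elongase gene, by 16 bases, and Elovl1 had a log2 fold change of -0.03 ± 0.04.

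Fzr1 (mm10 chromosome 10, 81366879 to 81378370) stood at 38, 33.1 and 33 CPM in NU7441, against 45.4, 44.5 and 43.2 CPM in DMSO. NU7441 sample 1 came nearest to the DMSO samples, the lowest of which was 1.14 times as high. The log2 fold change was -0.35 ± 0.05 (95% interval -0.46 to -0.25; edgeR, adjusted p = 7.4e-05), so that the interval does not meet that of Cdc20. Within samples, the ratio of Cdc20 to Fzr1 counts was 0.409, 0.381 and 0.329 in NU7441, against 0.938, 0.800 and 0.847 in DMSO. The ratio was lower in every NU7441 sample than in every DMSO sample, by 1.21 on the log2 scale (exact permutation test, two-sided p = 0.1, and 0.125 adjusted over 5 ratios). A ratio within a sample does not depend on how libraries are scaled.

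Fbxo5, the inhibitor of the APC/C, fell with the cyclins. Fbxo5 (mm10 chromosome 10, 5799158 to 5805465) stood at 8.06, 7.87 and 6.51 CPM in NU7441, against 18.9, 18.5 and 17 CPM in DMSO, and its log2 fold change was -1.27 ± 0.08 (edgeR, adjusted p = 1.7e-08). The ratio of inhibitor to coactivator transcript, Fbxo5 to Fzr1, was 0.212, 0.238 and 0.197 in NU7441, against 0.416, 0.415 and 0.392 in DMSO. This ratio was also lower in every NU7441 sample, with a log2 difference of -0.92 (exact permutation test, two-sided p = 0.1, and 0.125 adjusted).

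Ube2c, the chain-starting enzyme of the APC/C, fell by a similar amount. Ube2c (mm10 chromosome 2, 164769929 to 164772902) stood at 13.6, 11.5 and 10.5 CPM in NU7441, against 32.8, 28.7 and 28.8 CPM in DMSO. The log2 fold change was -1.34 ± 0.08 (edgeR, adjusted p = 8.2e-09). Rows of miRNA genes that overlap Ccnf, Ube2c or Cdc25b in the table held at most 8 counts in any sample.

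**Figure D3:**
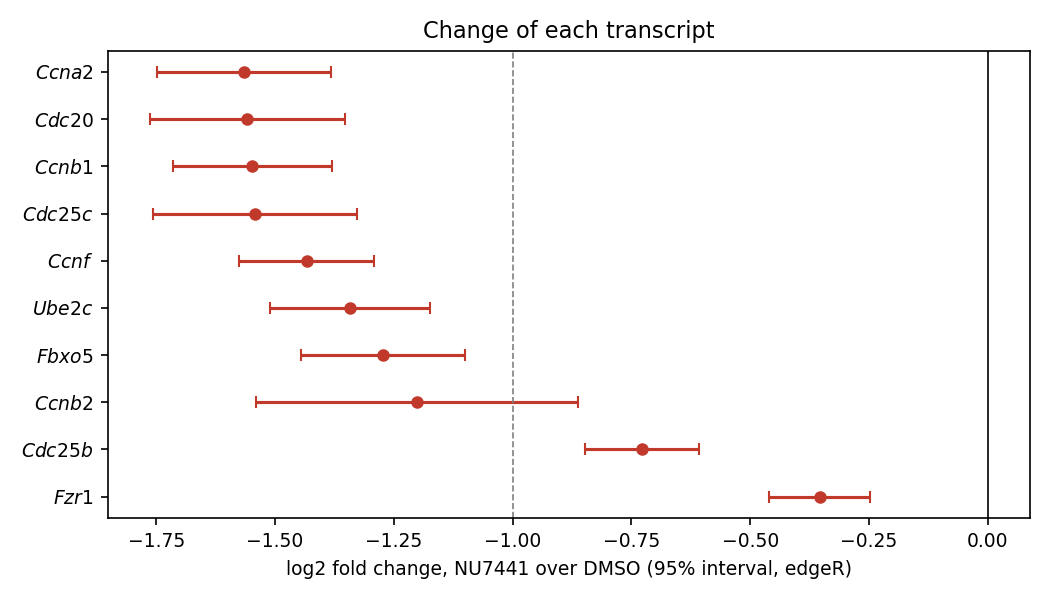
Log2 fold change of each transcript, NU7441 over DMSO (horizontal axis; points, edgeR estimate; bars, 95% interval; n = 3 per group), with a solid line at no change and a dashed line at a 2-fold fall. The intervals of 8 genes overlap between estimates of -1.56 and -1.20, and those of Cdc25b and Fzr1 lie closer to 0.

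The CDC25 phosphatases also differed from each other. Cdc25c, which acts on CDK1 at mitotic entry (mm10 chromosome 18, 34732997 to 34751533), stood at 3.74, 3.31 and 3.6 CPM in NU7441, against 11.2, 9.27 and 10.5 CPM in DMSO. It had the fewest counts of the 10 genes, 180 to 196 per NU7441 sample and 440 to 752 per DMSO sample, and its log2 fold change was -1.54 ± 0.10 (edgeR, adjusted p = 2.2e-08). Cdc25b, which starts CDK1 activation at the centrosome (mm10 chromosome 2, 131186948 to 131198511), stood at 26.5, 26.8 and 23.4 CPM in NU7441, against 45.3, 39.6 and 42.2 CPM in DMSO. Cdc25b fell by 0.73 on the log2 scale (SE 0.06; edgeR, adjusted p = 1.5e-07). The ratio of Cdc25b to Cdc25c counts was therefore higher in NU7441, at 7.07, 8.10 and 6.50, against 4.03, 4.27 and 4.02 in DMSO (log2 difference 0.81; exact permutation test, two-sided p = 0.1, and 0.125 adjusted). Cdc25a, the family member that acts mainly at entry into S phase, averaged 12.2 ± 0.712 CPM in NU7441 and 15.5 ± 0.927 CPM in DMSO (SD, n = 3 each), and its log2 fold change was -0.34 ± 0.07 (edgeR, adjusted p = 0.0013).

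**Figure D4:**
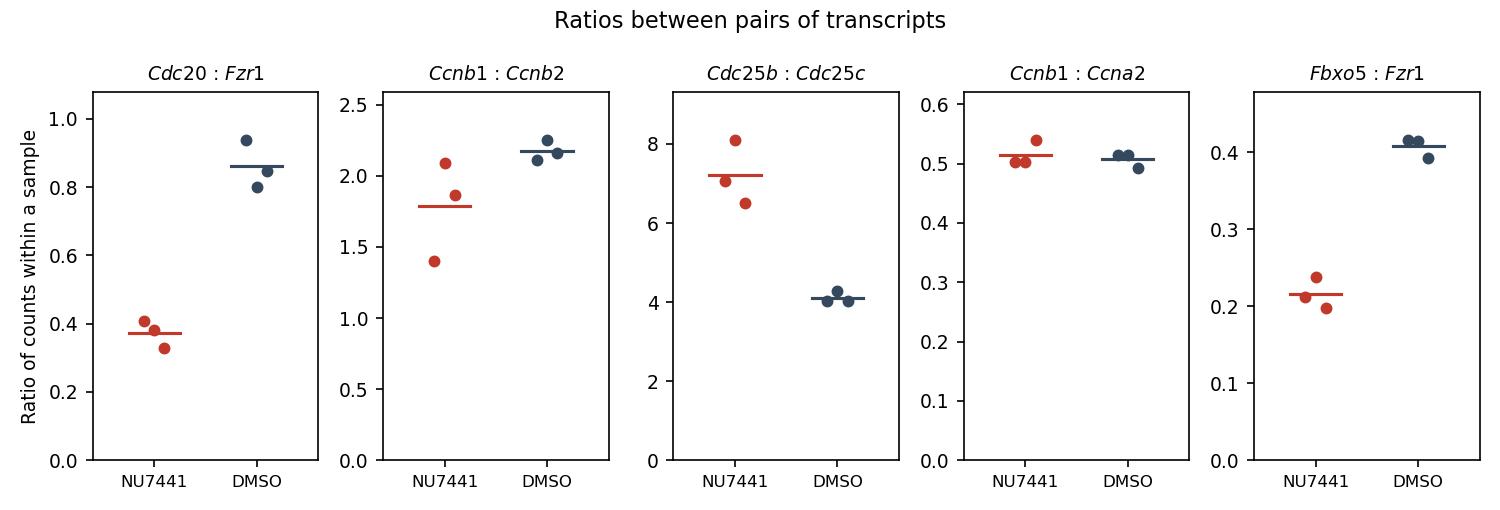
Ratio of counts between pairs of transcripts within each sample (vertical axes from 0; points, samples; lines, group means), for NU7441 (left) and DMSO (right) samples. Cdc20 to Fzr1 and Fbxo5 to Fzr1 are lower and Cdc25b to Cdc25c is higher in every NU7441 sample, whereas Ccnb1 to Ccna2 overlaps between the groups. Ccnb1 to Ccnb2 is also lower in every NU7441 sample, but only just: its highest NU7441 value is 2.09 and its lowest DMSO value 2.11.

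Per length, the order of the transcripts differed between the groups. The deposited RPKM scale divides counts by gene length and by a total per sample. On that scale Fzr1 was highest in NU7441 at 11.4 ± 1.13 (SD, n = 3), followed by Ube2c at 9.47 ± 1.39 and Ccna2 at 8.42 ± 1.53. This order held within every NU7441 sample, although the ranges of neighbouring genes across the samples overlap. In DMSO, Ccna2 at 25.4 ± 1.88 RPKM and Ube2c at 24.5 ± 1.93 RPKM led. Ccna2 lay slightly above Ube2c within every DMSO sample, at 27.5 against 26.7, 24.0 against 23.2 and 24.6 against 23.6 RPKM. Fzr1 stood at 14.9 ± 0.332 RPKM in DMSO, close to Cdc20 at 16.2 ± 1.64 and Ccnb1 at 15.6 ± 1.35. Cdc25c was lowest in both groups, at 1.36 ± 0.102 RPKM in NU7441 and 4.03 ± 0.405 RPKM in DMSO, with Fbxo5 next at 3.07 ± 0.372 in NU7441 and 7.58 ± 0.39 in DMSO.

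Most of the transcripts placed the same sample highest within a group. NU7441 sample 1 was the highest of its group for 8 of the 10 genes and sample 3 the lowest for 8, and DMSO sample 1 was the highest of its group for all 10. The lowest DMSO sample was sample 2 for 6 genes and sample 3 for 4. The genes share these libraries, so this is a single pattern and not 10 separate ones. Over the 6 samples, the Euclidean distance between log2 CPM profiles centred on their means was 0.06 between Ccna2 and Cdc20 and 0.10 between Ccna2 and Ccnb1, against 1.51 between Ccna2 and Fzr1. Such profiles keep the difference between the groups, so a small distance largely means a similar fold change and is not separate evidence. Among 11859 genes outside the set with at least 1 CPM, the profiles near to that of Ccnb1 included those of Espl1 (distance 0.09) and Cdca8 (0.12). Espl1 encodes separase, which opens the cohesin ring at anaphase, and Cdca8 encodes borealin of the chromosome passenger complex. Nearest to Fzr1 were Hn1 (0.07), Nt5dc2 (0.08) and Clcc1 (0.08), with log2 fold changes of -0.38, -0.34 and -0.29.

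The other genes of this pathway were counted by role in lists, beside the 16.6% of all genes tested that were called lower, the 14.1% called higher and the 1.36% that fell by at least 2-fold. Substrates of the APC/C fell almost throughout: 16 of 17 were lower and 0 higher, and 14 had a fall of at least 2-fold (median log2 fold change -1.31). Rrm2 (-1.22 ± 0.04), the nucleotide synthesis gene Tk1 (-1.31 ± 0.05) and the chromosome passenger kinase gene Aurkb (-1.57 ± 0.06) had the lowest adjusted p. The exception was Pttg1, which encodes securin, the inhibitor of separase that the APC/C destroys at anaphase, named after its value was seen. Pttg1 had 444, 454 and 402 counts in NU7441, against 476, 328 and 606 in DMSO, which as CPM averaged 8.17 ± 0.416 and 7.97 ± 0.922. Its log2 fold change was 0.03 ± 0.09 (95% interval -0.17 to 0.23; edgeR, adjusted p = 0.85), and it was -0.06 without DMSO replicate 2, so no change was detectable.

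Genes of the spindle checkpoint, which restrains CDC20 until chromosomes are attached, were lower in 7 of 8 cases and higher in 0, against 16.6% and 14.1% of all genes tested, with a median of -1.005. Bub1 (-1.49 ± 0.07), Ttk (-1.25 ± 0.07), Bub1b (-1.38 ± 0.08) and Mad2l1 (-0.89 ± 0.05) fell. BUBR1, from Bub1b, and MAD2, from Mad2l1, bind CDC20 directly. Among 17 genes that control CDK1, 13 were lower and 0 higher, against the same 16.6% and 14.1% (median -0.59). Cdk1 itself averaged 30.4 ± 2.78 CPM in NU7441 and 70.9 ± 1.62 CPM in DMSO, and its log2 fold change was -1.22 ± 0.05 (edgeR, adjusted p = 4e-10). Plk1 (-1.66 ± 0.10), a kinase that activates CDC25C, Cks2 (-1.16 ± 0.07), a CDK subunit, and Wee1 (-0.72 ± 0.04), the kinase that opposes the CDC25 phosphatases, fell as well.

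Changes of the core APC/C subunits were small. In the subunit list 5 of 14 were lower and 0 higher. The median was -0.09, and the count compares with the 16.6% of all genes called lower. Anapc15, listed in the table as 3200002M19Rik, fell by 0.41 on the log2 scale, Cdc27 by 0.16 and Cdc23 by 0.15. The number of subunits called lower was 3 without NU7441 replicate 1, NU7441 replicate 3, DMSO replicate 2 or DMSO replicate 3. In a list of 7 SCF ligase genes and Ube2s, the chain-extending enzyme of the APC/C, 4 of 8 were lower and 1 was higher, against 16.6% and 14.1% of all genes tested, and the median was -0.08. Ube2s fell by 0.50, Skp2, the receptor for the CDK inhibitor p27, by 0.54 and Cul1, the SCF scaffold, by 0.12. Btrc, a receptor that marks FBXO5 for destruction, was the gene called higher (0.09 ± 0.03; edgeR, adjusted p = 0.047), a call lost without any 1 of the 6 samples (adjusted p from 0.0544 to 0.115).

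Genes of the DREAM and B-MYB complexes, which read CHR elements, and of NF-Y, which binds CCAAT boxes, were counted together. In this list 8 of 13 were lower and 1 was higher, against 16.6% and 14.1% of all genes tested, with a median of -0.25. Mybl2, which encodes B-MYB, fell by 1.10, Rbl1, the p107 subunit of DREAM, by 0.88 and Tfdp1, the partner of E2F proteins, by 0.38. Rbl2, which encodes the p130 subunit of DREAM found in resting cells, was the gene that rose (0.17 ± 0.04; edgeR, adjusted p = 0.004). The NF-Y genes did not pass the threshold, with 95% intervals of the log2 fold change of -0.16 to -0.02 for Nfya, -0.11 to 0.09 for Nfyb and -0.22 to -0.01 for Nfyc. Nfya came close to it (edgeR, adjusted p = 0.051).

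**Figure D5:**
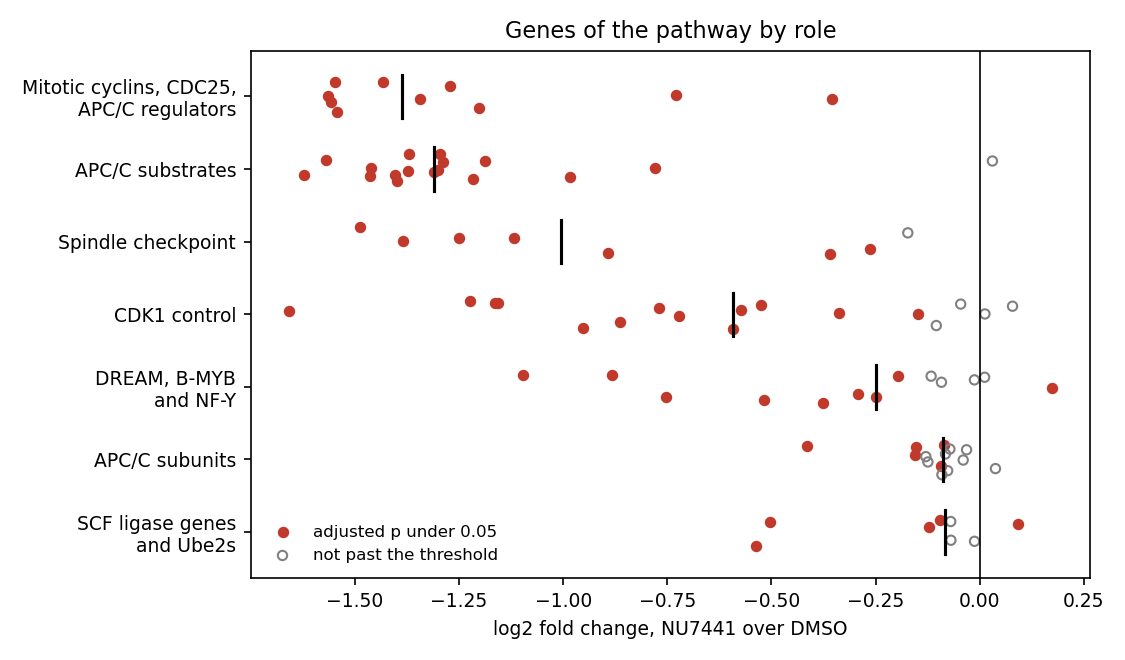
Log2 fold change, NU7441 over DMSO (horizontal axis), of each gene in 7 groups by role (rows; vertical jitter for visibility only), filled red where the adjusted p is under 0.05 and open grey where it is not, with a black line at each median. Medians run from -1.39 for the cyclins, CDC25 genes and APC/C regulators and -1.31 for the substrates to -0.09 for the APC/C subunits and -0.08 for the SCF list.

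The libraries held 52150994 to 55021692 counts in NU7441 and 47312968 to 71292628 in DMSO, and the ribosomal precursor Rn45s took 12.2% to 13.2% of the counts in NU7441 and 12.9% to 13.9% in DMSO. All 8 osteoblast markers were detected, with a summed level, most of it from Col1a1 and Col1a2, of 45241 to 46626 CPM in NU7441 and 44288 to 46523 CPM in DMSO. Singly they went both ways: Ibsp (log2 fold change -0.89) and Alpl (-0.29) were called lower, and Spp1 (0.25) and Col1a2 (0.05) higher. The 12 markers of other cell types summed to 11.3 to 14 CPM in NU7441 and 10.8 to 11.5 CPM in DMSO, with Ptprc, Epcam, Myod1 and Acan at 0 in all samples. Of these 12, 4 passed the low-count filter, and the chondrocyte collagen gene Col2a1, at 9.94 ± 0.948 CPM in NU7441 and 8.49 ± 0.203 CPM in DMSO, was called higher.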

How the data were processed

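RNA of 3 NU7441 and 3 DMSO samples was sequenced, and the authors deposited a count and an RPKM value per gene and sample, with a gene length per row, per the file headers. The submitters' processing notes name bcl2fastq, TopHat2 2.0.6, HTSeq and mm10. Settings, strand use and the RPKM totals are not given in the sources used here. The deposited counts held 0 odd values, so a read pair appears to count as 2. Counts as deposited were tested on all 6 samples with edgeR 4.0.16 in R 4.3.3: filterByExpr (minimum count 10, minimum total 15, leaving 13784 genes), TMM scaling, group as the only term, quasi-likelihood test, two-sided, Benjamini-Hochberg adjustment at 0.05. The SE is the log2 fold change divided by the root of F, and intervals are 95%. The coefficient of variation, from the common dispersion over all genes tested, was 5.6%. It is not the precision of a single gene: among the 10 genes the SE ran from 0.05 for Fzr1 to 0.16 for Ccnb2. RPKM served only to order levels per length. The procedure was tested on simulated data. All 10 genes passed the filter. Profiles for likeness used log2 CPM with a prior count of 2.

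The genes and lists were chosen with earlier results of these data known. Named list genes are the 3 called with the lowest adjusted p in each list, called genes opposite to the list median, and Cdk1, Plk1, Cdc25a, Wee1, Ube2s, Bub1b and Mad2l1. The 3 nearest profiles to Ccnb1 and to Fzr1 were also taken, of which 1 result is not reported here. Alternatives were other scalings, no filter, DESeq2 1.42.0, halved counts, a robust fit, a replicate block and each sample left out. Leaving out Rn45s was added after seeing the data. No unmapped sample columns remained (0).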

Additional observations from a re-analysis of the deposited data

How the results depend on the processing

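All 10 genes stayed lower at an adjusted p under 0.05, and 8 by at least 2-fold, under each of 15 alternatives to the edgeR fit (other scalings, no filter, DESeq2, halved counts, robust fit, replicate block, each sample left out, and no Rn45s). The highest adjusted p was 0.039, for Ccnb2 in the robust fit, and log2 fold changes of Ccnb2 lay between -1.53 and -1.05. Without a filter on low counts the number of all genes called was 4208 and with DESeq2 3985, against 4231. The share of calls that were higher was 56.5% under upper-quartile scaling, 45.9% with TMM and 37.7% with library size only. APC/C subunits called lower were 3 of 14 with upper-quartile scaling, and between 3 and 4 when each sample was left out, against 5 in the full fit, 6 with the robust fit and 7 with library size only and with the replicate block. The number of SCF list genes higher was 0 with library size only, without the filter, with DESeq2 and without any 1 sample. Of the 13 DREAM, B-MYB and NF-Y genes, 8 were lower in the full fit, 7 with upper-quartile scaling and 9 with library size only. The log2 difference of Ccnb1 to Ccna2 lay between -0.013 (without NU7441 replicate 3) and 0.038 (without NU7441 replicate 2). Pttg1 lay between -0.057 (without DMSO replicate 2) and 0.082 (without DMSO replicate 1). Elovl1 was at 5.1e-05 with upper-quartile scaling, and with samples left out it lay between -0.061 (without NU7441 replicate 3) and 0.0088 (without DMSO replicate 1), with 0.0011 without NU7441 replicate 2. The causes of these shifts were not tested. Same-numbered samples had correlations of their deviations of 0.13, 0.09 and 0.05, and each NU7441 sample correlated best with its own number. The labels do not say what a sample number stands for, so the numbers were not taken as pairs in the main fit. The replicate block called 5120 genes, with 10 of the 10 genes lower. For the ratios the block gives the same mean difference by construction and so says nothing of their stability. Depth limits Cdc25c most, with 180 counts in its lowest sample.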
